A study of Mus musculus with 7 samples.

Results

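The genes described here build the beaded filament, the cytoskeleton particular to lens fibre cells, or act in the maturation of those cells. They are Bfsp1, Bfsp2, Vim, Dnase2b, Lgsn, Grifin, Hsf4, Tdrd7, Caprin2 and Birc7, taken at every probe set to which the platform annotation gives that gene as its only symbol. By this rule 9 of the 10 genes were measured, at 12 of the 45037 probe sets that are not array controls. No probe set carried Lgsn (lengsin, a fibre protein related to glutamine synthetase) as its only symbol, and Lgsn is not analysed here. The samples were lens epithelium from SPARC-null mice (KO; 4 lenses of 3 animals) and wild-type mice (WT; 3 lenses of 3 animals), all littermates on a C57Bl/6 background and 28 days old. The KO lenses were both eyes of animal 1 (1L and 1R) and the left eyes of animals 4 and 7 (4L and 7L), and the WT lenses were the left eyes of animals 2, 5 and 6 (2L, 5L and 6L). Animal 7 was male and the other animals were female. SPARC is a secreted matrix glycoprotein that binds collagens of basement membranes such as the lens capsule. The labels name no promoter or cell type for the null allele and do not say which part of the gene is deleted.

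Lens fibre cells arise from the epithelium at the lens equator, elongate, fill with crystallins and then lose their nuclei and organelles. During this maturation the vimentin filaments of the epithelium and young fibres give way to beaded filaments, which Bfsp1 (filensin) and Bfsp2 (phakinin, also called CP49) assemble together. Nuclear DNA is degraded by the acid nuclease encoded by Dnase2b, whose transcription in the mouse lens requires the heat shock factor encoded by Hsf4. Tdrd7 and Caprin2 encode proteins that bind RNA or reside in RNA granules, and in mice loss of Tdrd7 leads to cataract.

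Each value is 1 summary signal per probe set and array, in arbitrary intensity units. The tests used log2(signal + 16) after quantile normalization, with 1L and 1R averaged so that limma set 3 KO animals against 3 WT animals. The deposited signals of Sparc at the brightest of its 3 probe sets ran between 8.14 and 70.5 in the KO lenses and between 27371 and 49972 in the WT lenses, a log2 difference of -9.94 (SE 0.34) with a limma adjusted p of 3.41e-06, as the labels imply. A total of 27 bacterial control probe sets gave signals of at most 45.5, and no member signal was below 200.1 in any lens. Of 8 lens epithelium markers, 7 lay above that background in all 7 lenses. The other, Foxe3, a transcription factor of this epithelium, gave between 11.5 and 84.1 in the KO lenses and between 40.2 and 118 in the WT lenses, at or under background in 4 of the 7. All 6 measured lens fibre markers were above background in every lens. Their summed signal lay between 146900 and 195760 in the KO lenses and between 120860 and 189640 in the WT lenses, so transcripts typical of fibre cells were present beside those of epithelium. The 7 measured photoreceptor markers also lay above background throughout, with sums between 62511 and 86090 in the KO lenses and between 52306 and 94009 in the WT lenses. In bulk samples such as these, fewer cells of a type and less RNA per cell cannot be told apart.

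All 9 measured genes had a lower mean in KO than in WT animals at their brightest probe set, and no difference passed the test. The median log2 difference of the 9 genes was -0.22, against -0.012 over all probe sets, of which 51.6% were lower in KO. Dnase2b had the largest difference (-0.83), and the other 8 genes lay between -0.47 and -0.17. None of the 12 probe sets reached a limma adjusted p of 0.05, where 0.00666% of all probe sets did, and the smallest adjusted p among them was 0.918. One of the 12, that of Dnase2b, had an unadjusted p under 0.05, against 4.06% of all probe sets. In 0 of the 12 were the 4 KO lenses separated from the 3 WT lenses, while 5.33% of all probe sets separated them in either direction.

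The count of lower genes was 9 without KO animal 1, 8 without WT animal 2 and 8 with the right lens of KO animal 1 alone. The median moved more: it was -0.39 when animal 1 was represented by its left lens, -0.095 when it was represented by its right lens, -0.096 without WT animal 2 and -0.34 without KO animal 7.

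**Figure D1:**
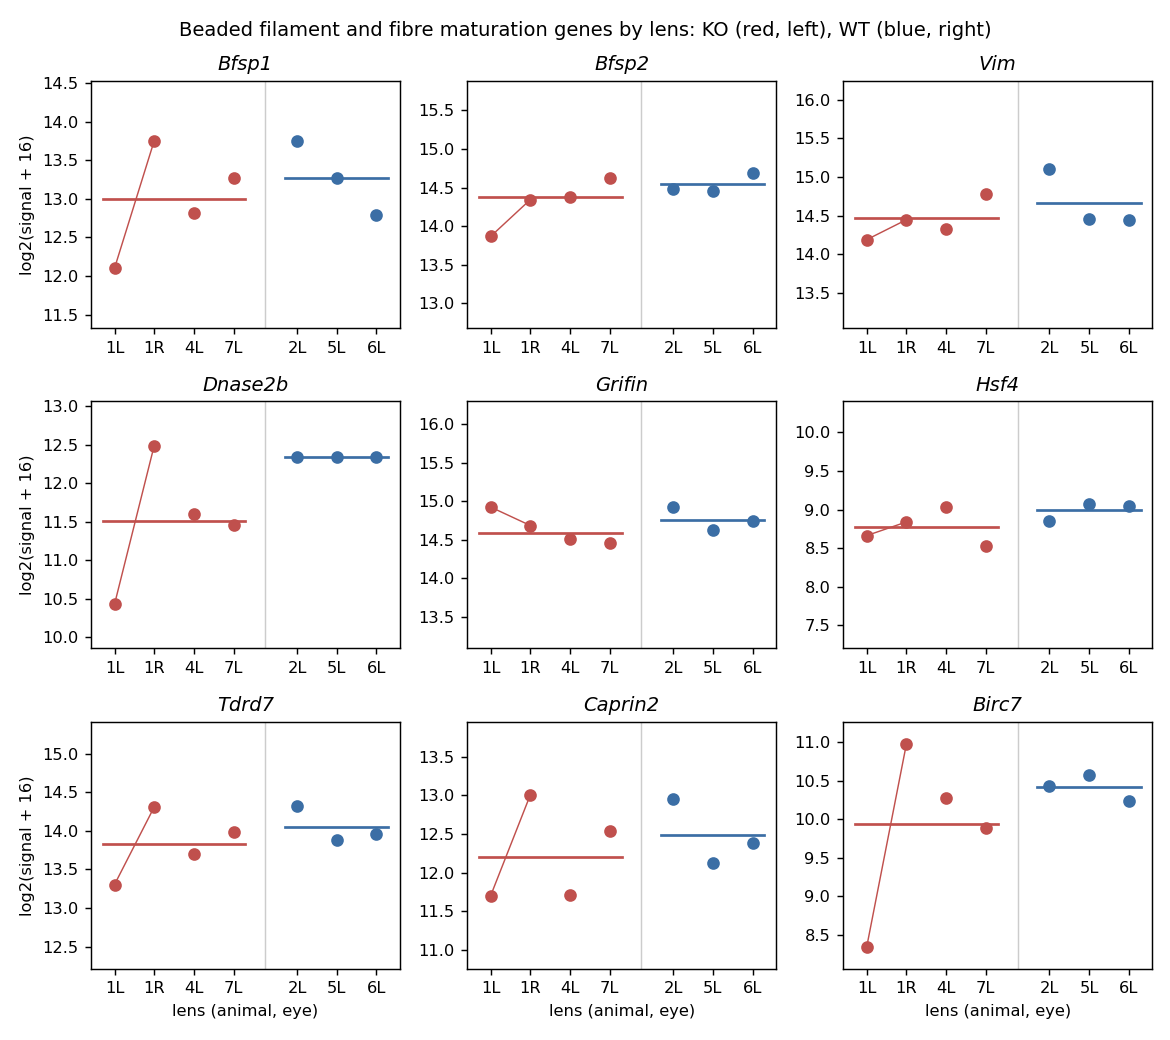
Normalized log2(signal + 16) of each measured gene at its brightest probe set, with 1 point per lens, KO lenses in red on the left and WT lenses in blue on the right. Horizontal lines are means of 3 animals, the thin line joins both eyes of KO animal 1, and all panels have the same span. The KO lens 1L is the lowest of the 7 lenses in 7 of the 9 panels.

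Bfsp1 (probe set 1450571_a_at) had deposited signals of 4371, 13477, 7710 and 8996 in the KO lenses 1L, 1R, 4L and 7L, against 10845, 10692 and 7434 in the WT lenses 2L, 5L and 6L. The KO lenses held both the lowest and the highest of these values. On the normalized log2 scale Bfsp1 averaged 13.00 ± 0.24 over KO animals and 13.27 ± 0.48 over WT animals (mean ± SD, n = 3), a difference of -0.27 (95% interval -0.84 to 0.31, limma adjusted p = 0.99988). The difference was 0.0086 with the right lens of KO animal 1 alone and -0.54 with the left lens alone. It was -0.027 without WT animal 2, -0.17 without KO animal 4, -0.41 without KO animal 7 and -0.50 without WT animal 6, so its direction was not resolved.

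Bfsp2 (1434463_at), the partner of Bfsp1 in the filament, had signals of 15520, 21440, 23991 and 22289 in the KO lenses 1L, 1R, 4L and 7L, against 16462, 25359 and 31294 in the WT lenses 2L, 5L and 6L. The WT lens 2L lay next to the lowest KO lens on this scale, and its array had the lowest top signal of all (28328, others up to 53056). After normalization 2L lay at 14.49, beside 14.46 and 14.70 in the other WT lenses, and 1L was the lowest of all at 13.87. Bfsp2 averaged 14.37 ± 0.26 over KO animals and 14.55 ± 0.13 over WT animals (mean ± SD, n = 3; log2 difference -0.17, 95% interval -0.62 to 0.27). This difference was -0.042 without KO animal 1, -0.0995 without WT animal 6 and -0.31 without KO animal 7, and -0.095 with the right lens of animal 1 alone.

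Vim, the intermediate filament protein of the epithelium and of young fibres, which mesenchymal, glial and endothelial cells also make, was read by 3 probe sets. At the brightest (1450641_at) the signals were 19647, 22985, 23092 and 24166 in the KO lenses 1L, 1R, 4L and 7L, against 22574, 25329 and 25986 in the WT lenses 2L, 5L and 6L. The groups overlapped, and the WT mean was raised by 2L, which normalization placed at 15.10, with 14.46 and 14.44 in the other WT lenses. The log2 difference was -0.19 (95% interval -0.72 to 0.34), and 0.025 without WT animal 2, -0.11 without KO animal 1, -0.12 without KO animal 4 and -0.34 without KO animal 7. It was -0.30 without WT animal 5 and -0.31 without WT animal 6. The other Vim probe sets differed by -0.0039 (1438118_x_at) and -0.0020 (1456292_a_at). They share 1 target accession in the annotation and are not independent readings.

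Grifin, a galectin-like protein between lens fibres, had signals of 32225, 27338, 26749 and 19693 in the KO lenses 1L, 1R, 4L and 7L, against 20874, 28847 and 32233 in the WT lenses 2L, 5L and 6L. It was the only measured member at which 1L was the highest KO lens. The log2 difference was -0.17 (95% interval -0.59 to 0.25). It was -0.095 without WT animal 2, -0.10 without KO animal 7 and -0.27 without KO animal 1. At most, signals of Vim reached 79.7%, of Grifin 76.4%, of Bfsp2 59.9% and of Tdrd7 53.2% of the highest signal on an array. For Vim and Tdrd7 this was the array of 2L, which had the lowest top signal (28328, others up to 53056). How linear the response is at such levels was not tested.

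**Figure D2:**
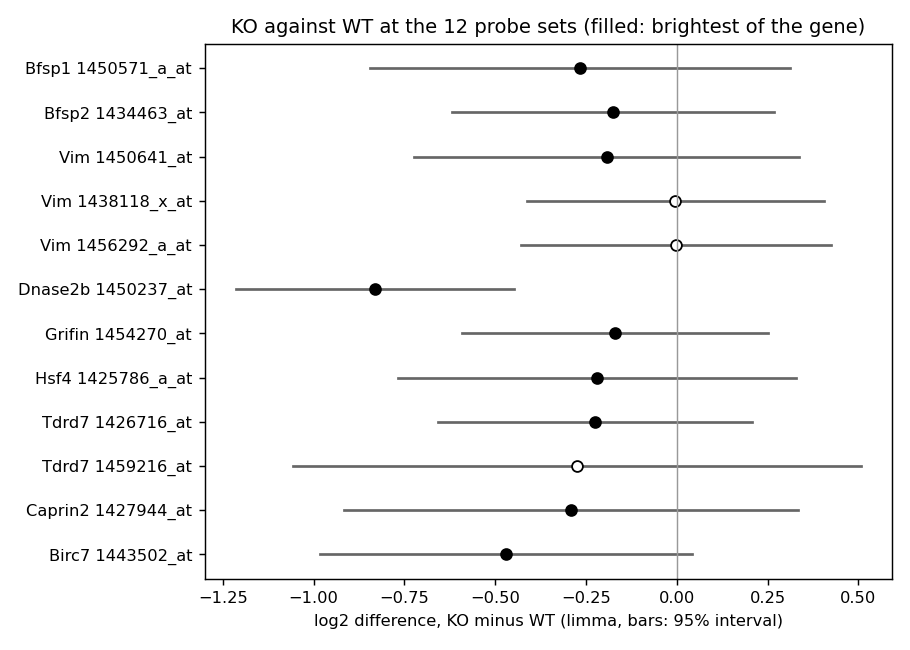
Log2 difference between KO and WT animals (KO minus WT) at each of the 12 probe sets, with its 95% interval from limma. Filled points are the brightest probe set of each gene, open points the others. All 12 estimates lie below 0, those of the open Vim points only just (-0.0039 and -0.0020). Every interval except that of Dnase2b (-1.21 to -0.45) includes 0. The intervals come from animal values with 1L and 1R averaged, so they do not show the distance between these lenses.

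Among the genes of nuclear removal, the regulator and the nuclease were read by 1 probe set each. Hsf4 (1425786_a_at) gave signals of 399, 447, 493 and 359 in the KO lenses 1L, 1R, 4L and 7L, against 475, 501 and 489 in the WT lenses 2L, 5L and 6L. The KO lens 4L lay inside the WT range and the other 3 KO lenses below it. Hsf4 averaged 8.77 ± 0.25 over KO animals and 8.99 ± 0.12 over WT animals (mean ± SD, n = 3), a log2 difference of -0.22 (95% interval -0.77 to 0.33). It was -0.097 without KO animal 7 and -0.35 without KO animal 4.

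Dnase2b (1450237_at) had signals of 1338, 5671, 3100 and 2809 in the KO lenses 1L, 1R, 4L and 7L, against 4835, 5355 and 5384 in the WT lenses 2L, 5L and 6L. The KO lenses 1L, 4L and 7L therefore lay under every WT lens, while 1R lay above every one. After 1L and 1R were averaged, Dnase2b was at 11.51 ± 0.086 over KO animals and 12.34 ± 0.00052 over WT animals (mean ± SD, n = 3). The difference was -0.83 (SE 0.17), or 0.562-fold, with an unadjusted p of 7.14e-04 and a limma adjusted p of 0.918. Dnase2b was the single member probe set at which the 3 KO animal means lay below the 3 WT animal means, which held for 4.53% of all probe sets.

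Neither of these Dnase2b SDs reflects the spread between lenses, and the SE, p and interval of Dnase2b were computed from the same animal values. The KO SD hides the distance between 1L (10.43) and 1R (12.49). Quantile normalization brought the WT lenses, which differed in deposited signal, to nearly equal values. Without KO animal 1 altogether, with 4L and 7L against the WT lenses, the difference was -0.80. It was -1.18 with only the left lens of animal 1 and -0.49 with only the right, and the limma adjusted p over the 16 alternatives that had one ran from 0.423 to 1.00.

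Of the RNA granule genes, Tdrd7 (1426716_at) had signals of 10347, 20722, 15175 and 14573 in the KO lenses 1L, 1R, 4L and 7L, against 15060, 16643 and 18032 in the WT lenses 2L, 5L and 6L. In deposited signal the lowest and the highest lens were again the eyes of KO animal 1. After normalization the WT lens 2L, at 14.32, lay just above 1R, at 14.31. The log2 difference was -0.22 (95% interval -0.66 to 0.21). It was -0.096 without WT animal 2, and -0.39 with the left and -0.059 with the right lens of KO animal 1 alone. The weaker Tdrd7 probe set (1459216_at), with signals between 200.1 and 474 in the KO lenses and between 231 and 406 in the WT lenses, differed by -0.27 (95% interval -1.06 to 0.51).

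Caprin2 (1427944_at), an RNA-binding protein of differentiating fibres, had signals of 3281, 8179, 3364 and 5682 in the KO lenses 1L, 1R, 4L and 7L, against 6940, 4597 and 5579 in the WT lenses 2L, 5L and 6L. The KO lenses 1L and 4L were low, 7L lay within the WT range and 1R above it. Caprin2 averaged 12.20 ± 0.43 over KO animals and 12.49 ± 0.42 over WT animals (mean ± SD, n = 3; log2 difference -0.29, 95% interval -0.92 to 0.33). That difference was -0.046 without KO animal 4, -0.058 without WT animal 2, -0.46 without KO animal 7 and -0.47 without WT animal 5. It was -0.51 with the left lens of KO animal 1 alone and -0.074 with the right lens alone.

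Birc7 (1443502_at) encodes livin, an inhibitor of apoptosis. Its signals were 319, 1981, 1184 and 956 in the KO lenses 1L, 1R, 4L and 7L, against 1442, 1496 and 1158 in the WT lenses 2L, 5L and 6L. The KO lens 1R exceeded all WT lenses, 4L fell among them, and 1L and 7L were below. Birc7 averaged 9.94 ± 0.31 over KO animals and 10.41 ± 0.17 over WT animals (mean ± SD, n = 3), a log2 difference of -0.47 (95% interval -0.98 to 0.042, limma adjusted p = 0.99988). With the left lens of KO animal 1 alone the difference was -0.91, and with the right lens alone it was -0.034.

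The eyes of KO animal 1 differed at the members by a median absolute log2 value of 1.00. Over all probe sets above the median level this value was 0.42. Between KO and WT the median absolute difference of the members was 0.22. The latter is a difference of means over 3 animals and varies less than one between single lenses. At 8 of the 9 genes the lens 1R was the higher, against 49.6% of all probe sets. The log2 difference, 1R minus 1L, was 2.63 for Birc7, 2.06 for Dnase2b, 1.65 for Bfsp1, 1.31 for Caprin2 and 1.00 for Tdrd7. It was 0.48 for Bfsp2, 0.26 for Vim, 0.18 for Hsf4 and -0.24 for Grifin. A difference of over 1 in this direction was thus seen in 5 of 9 members, against 7.52% of all probe sets and 6.50% of those above the median level. The median over the members was 1.00, against -0.0054 over all probe sets. With 1 lens per eye these are values without a test.

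Other readings of both lenses stand beside that difference. The ratio of Gapdh signal at the 3' end to that at the 5' end, lower where RNA is more intact, was 15.9 in 1R and 12.7 in 1L, and the same ratio for actin went the other way, at 15.1 in 1R and 19.1 in 1L. Summed fibre marker signals were 195760 in 1R and 157540 in 1L, and summed epithelium marker signals were 106240 in 1R and 85734 in 1L. The difference was above 0 at 5 of 6 fibre markers (median 0.21) and at 7 of 8 epithelium markers (median 0.26). In the opposite direction, summed photoreceptor signals were 62511 in 1R and 86090 in 1L, lower in 1R at 6 of 7 markers, and summed muscle signals were 16583 in 1R and 23929 in 1L, lower in 1R at 6 of 6. Summed stroma signals were 28097 in 1R and 16943 in 1L, with a median log2 difference of 1.18 and 1R higher at 6 of 6 markers. Summed surface epithelium signals were 13142 in 1R and 6190 in 1L, with a median of 1.01 and 1R higher at 4 of 5, a median near that of the members. The part of any of these in the member differences was not tested.

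**Figure D3:**
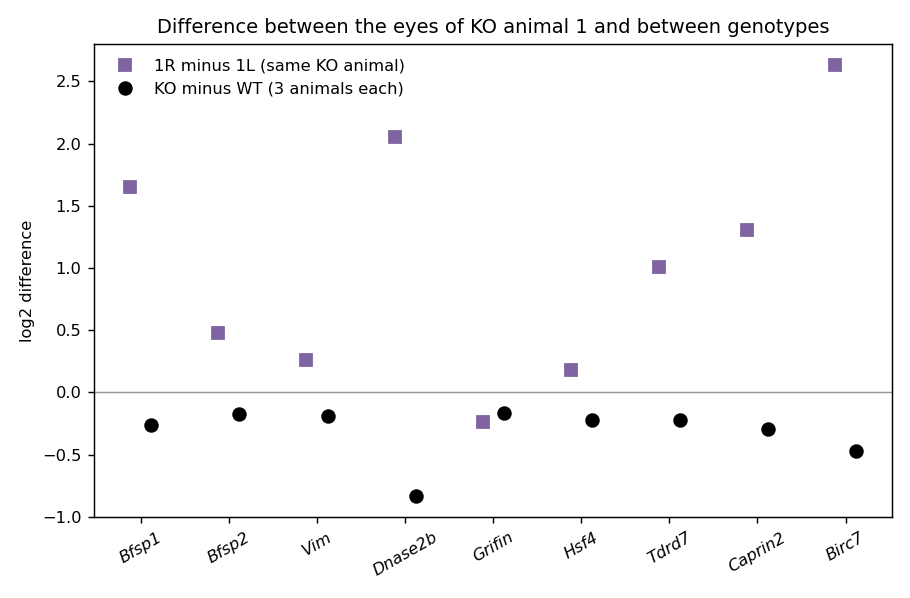
Log2 differences of the 9 measured genes between both eyes of KO animal 1 (1R minus 1L, squares) and between genotypes (KO minus WT, circles, 3 animals each), at the brightest probe set of each gene. The squares reach 2.63 at Birc7, and the circles lie between -0.83 and -0.17.

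Across lenses, 1L was the lowest of the 7 at 7 of the 9 genes, with a median deviation of -0.75 from the WT mean on the log2 scale. Its eye partner 1R was the highest of the 7 at 4 genes, with a median deviation of 0.15. The median deviation was -0.34 in 4L and -0.075 in 7L, and in the WT lenses it was 0.16 in 2L, -0.087 in 5L and -0.097 in 6L. KO lens 4L thus stood below each WT lens by this measure, and 7L stood between them. The WT mean is made of the WT lenses themselves, which draws their deviations toward 0 but not those of the KO lenses. The WT lens 2L also had the lowest Gapdh ratio, 3.75, against 9.06 to 15.9 in the other 6 lenses, and the part of RNA integrity or of its array in its higher values was not tested.

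The upstream sequence of the 4 members with the widest difference between the eyes of KO animal 1 is shown, for Dnase2b, Birc7, Bfsp1 and Caprin2. Each run is the 250 bases before the annotated start, 5′ to 3′ on the gene's strand, from RefSeq in build GRCm38.p6. Capitals mark heat shock element pairs, spelled GAANNTTC or TTCNNGAA, each of which reads the same on both strands, and half-sites of Maf factors, spelled TGCTGA or, on the other strand, TCAGCA.
Dnase2b, chr3:146615599-146615848, minus strand: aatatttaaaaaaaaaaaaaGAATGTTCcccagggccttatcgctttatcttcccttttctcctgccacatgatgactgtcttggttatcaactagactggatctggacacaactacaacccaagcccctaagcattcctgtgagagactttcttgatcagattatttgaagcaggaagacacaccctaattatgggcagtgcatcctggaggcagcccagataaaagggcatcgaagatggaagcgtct
Birc7, chr2:180928773-180929022, plus strand: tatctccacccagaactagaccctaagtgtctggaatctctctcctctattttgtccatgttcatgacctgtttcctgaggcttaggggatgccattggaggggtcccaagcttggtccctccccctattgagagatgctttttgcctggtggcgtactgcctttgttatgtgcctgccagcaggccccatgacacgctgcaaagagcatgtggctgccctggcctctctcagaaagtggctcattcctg
Bfsp1, chr2:143863174-143863423, minus strand: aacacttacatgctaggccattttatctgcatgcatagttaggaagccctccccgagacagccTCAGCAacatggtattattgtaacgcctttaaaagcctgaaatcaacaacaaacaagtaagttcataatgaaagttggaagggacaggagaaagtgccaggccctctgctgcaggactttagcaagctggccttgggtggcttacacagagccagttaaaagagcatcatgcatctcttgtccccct
Caprin2, chr6:148896238-148896487, minus strand: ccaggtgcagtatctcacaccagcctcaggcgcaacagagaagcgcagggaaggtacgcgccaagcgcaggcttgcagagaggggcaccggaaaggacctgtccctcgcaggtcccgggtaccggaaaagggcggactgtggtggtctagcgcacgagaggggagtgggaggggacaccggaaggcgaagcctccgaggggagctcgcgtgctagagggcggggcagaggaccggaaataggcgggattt

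A window was found for 9 of the 10 members, Lgsn included and Hsf4 not, with 3 alternative starts for Tdrd7. A heat shock element pair lay in 2 of the 11 member windows, against 12.8% of 32851 windows of all genes. These were the windows of Dnase2b, as printed, and 1 of the Tdrd7 starts. A Maf half-site lay in 3 of the 11, against 16.1% of all windows, in Bfsp1 as printed, Lgsn and another Tdrd7 start. Birc7 and Caprin2 held neither spelling. These matches describe letters and do not show that a factor binds.

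The genes whose mean-centred profile over the 7 lenses lay nearest that of Dnase2b were sought among probe sets with 1 symbol and a level above the median. The nearest 5 genes were Ceacam10 (root mean square difference 0.20 on the log2 scale), Gabra4 (0.22), Ces5a (0.24), Olfm4 (0.24) and Pappa (0.25). Olfm4 was weak in 1L, at a normalized log2 value of 5.47, with the others between 7.44 and 9.10 in that lens. Each of the 5 was lowest in 1L, and they differed between KO and WT by -0.95 (Olfm4) to -0.33 (Pappa), with no call in limma. They were picked for likeness to Dnase2b, itself lowest in 1L and lower in KO, so both traits follow from the choice. Of the members, Birc7 was nearest Dnase2b, at place 10 of 19436 probe sets (0.28), followed by Bfsp1 at place 124 (0.43) and Tdrd7 at place 188 (0.45). Grifin was farthest from it, at place 8208 (0.73).

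Genes related to the members by pathway or family were compared in 8 lists. Of the 90 genes listed, 82 were measured, 38 with lower and 44 with higher means in KO, and 0 passed the limma adjustment. An unadjusted p under 0.05 was seen at 5 of the 82 (6.10%), where the share over all probe sets was 4.06%. Their median log2 difference was 0.020, against -0.22 for the members.

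The other fibre differentiation genes were split in direction. Of 15 measured, 8 were higher and 7 lower in KO (median log2 difference 0.014). Tmod1, which caps the actin filaments of the fibre membrane skeleton, was at 10.94 ± 0.27 over KO animals and 10.48 ± 0.44 over WT animals, and Sox1, a transcription factor of fibre cells, at 11.02 ± 0.26 over KO animals and 11.34 ± 0.14 over WT animals (mean ± SD, n = 3). Cdkn1c, the cell cycle inhibitor p57, was at 12.16 over KO animals and 12.53 over WT animals. At 13 of these 15 genes 1R was above 1L, with a median of 0.20.

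Among 14 measured genes of organelle removal, other nucleases and the nuclear lamina, 7 were higher and 7 lower (median -0.066). The differences were -0.73 for Cdk1, which drives mitosis, -0.41 for Casp6, a caspase that cleaves lamin A, and -0.88 for Dnase1, which was at or under background in 5 of 7 lenses. None had an unadjusted p under 0.05.

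Of 16 other intermediate filament proteins and linkers, 12 were higher and 4 lower in KO, with a median of 0.20. Nes (-0.29) and Synm (-0.14) were among the lower, as the beaded filament genes were. Krt18 (0.042) and Cryaa (0.099) were among the higher. Gfap, the filament of astrocytes and stressed Müller glia, was at 12.26 ± 0.39 over KO animals and 10.79 ± 0.67 over WT animals (mean ± SD, n = 3; log2 difference 1.47, unadjusted p = 0.00143, limma adjusted p = 0.99988). Nefl, the light neurofilament chain of neurons, differed by 1.39, and Krt5, a keratin of surface epithelia, by -1.66. These are proteins of glia, neurons and ocular surface rather than of lens fibres, and some marker lists of other cell types shifted beside them. All 5 glial markers, Gfap among them, were higher in KO. Their sums lay between 7764 and 10135 in the KO lenses and between 3884 and 4677 in the WT lenses. Gfap itself gave between 3858 and 7081 in the KO lenses and between 1095 and 2432 in the WT lenses. Aqp4 (0.31) and S100b (0.12) overlapped between the groups. All 5 surface epithelium markers, Krt5 among them, had lower KO means, with sums that overlapped. These sums were 6190, 13142, 7272 and 1057 in the KO lenses 1L, 1R, 4L and 7L. In the WT lenses they lay between 6367 and 15309. Krt5 was at 8.90 ± 1.87 over KO animals and 10.56 ± 0.41 over WT animals (mean ± SD, n = 3). Of 9 macrophage and leukocyte markers 8 were higher in KO (median log2 difference 0.53), with sums between 1652 and 2864 in the KO lenses and between 911 and 1590 in the WT lenses. Csf1r itself gave between 868 and 1445 in the KO lenses and between 361 and 886 in the WT lenses. Adgre1 (0.032) and Cd68 (0.066) differed little. Aif1, the lower marker (-0.80), was at or under background in all 7 lenses. Of 6 pigmented epithelium and melanocyte markers 5 were higher (median 0.74), with sums that overlapped, between 14269 and 42657 in the KO lenses and between 7647 and 23658 in the WT lenses. Photoreceptor markers were split, 2 of 7 higher and 5 lower, with a median of -0.055. The part of other tissue in these differences was not tested.

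The families of the remaining members showed no common direction. Of 7 measured heat shock factor and heat shock protein genes, 4 were higher and 3 lower, with Hspa1a, an inducible chaperone, at 0.51. Of 14 tudor, caprin and RNA granule genes, 5 were higher and 9 lower (median -0.11), with Dcp1a, a cofactor of mRNA decapping, at -0.62 and Caprin1, the paralogue of Caprin2, at 0.32. Of 8 galectins, 4 were higher and 4 lower, with Lgals9 at -0.94 (unadjusted p = 0.0247). Of 7 genes of the apoptosis inhibitor family and its antagonists, 3 were higher and 4 lower, with Birc5, the mitotic protein survivin, at -0.68 and Birc6 at 0.36. Glul, the glutamine synthetase to which lengsin is related, was at 12.52 ± 0.40 over KO animals and 11.83 ± 0.49 over WT animals (mean ± SD, n = 3; log2 difference 0.69, unadjusted p = 0.0375). Glul is also a gene of Müller glia, whose markers stood higher in KO as given above. The part of glia in the Glul difference was not tested. No gene of these lists passed the limma adjustment over all probe sets.

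**Figure D4:**
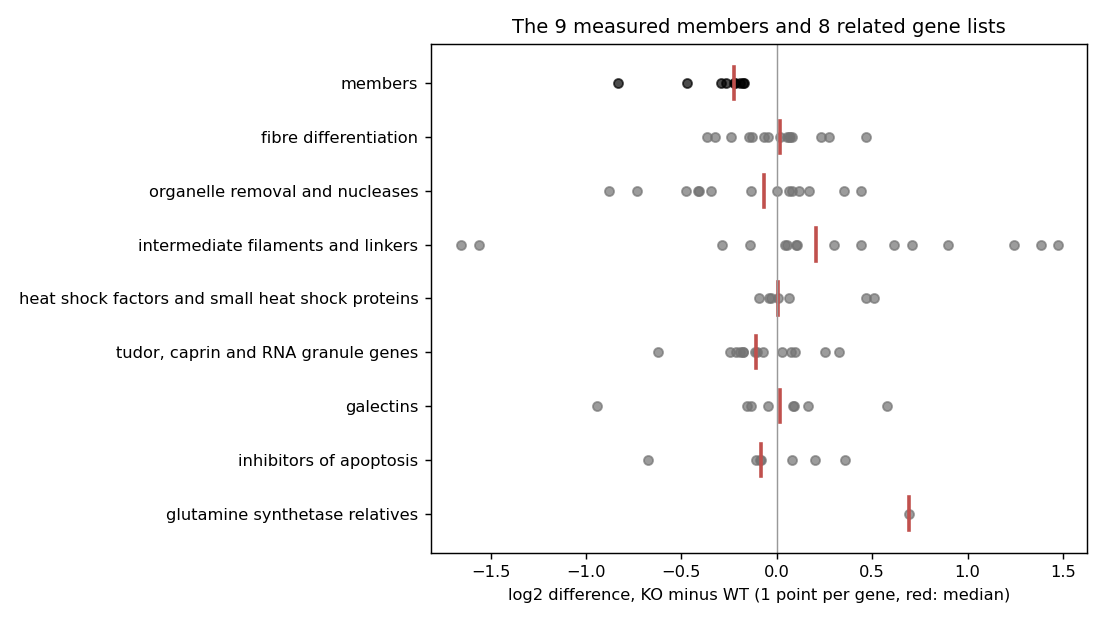
Log2 difference between KO and WT animals (KO minus WT) for each of the 9 measured members and the 82 measured genes of 8 related lists, 1 point per gene at its brightest probe set, with medians in red. The members lie between -0.83 and -0.17 with a median of -0.22, while the list of intermediate filaments and linkers spans -1.66 to 1.47.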

How the data were processed

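The deposited values are linear signal intensities from Affymetrix mouse arrays, summarised per probe set, with 1 array for each lens. Per the labels' protocols, epithelium was laser-captured from stained cryosections, and its RNA was amplified in a pair of cycles, which favours the 3' end of transcripts. On the deposited intensity scale every array had a mean of 500.003 or 500.004 after trimming 2% at each end. The sources used here do not give the summary software. Precision is limited by how few arrays there are.

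Of 45101 probe sets, 64 controls were left out and no filter on low values was used. After quantile normalization of log2(signal + 16), whose pseudocount understates changes of weak probe sets, 1L and 1R were averaged. The 2 groups of 3 animals entered limma 3.58.1 in R 4.3.3 (eBayes with an intensity trend). Its two-sided p-values were adjusted by Benjamini-Hochberg across the 45037 remaining probe sets, with calls at 0.05. The labels say that each array is 1 lens and all came from 1 litter. The code was tested on simulated data.

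Symbols came from the platform annotation (34945 probe sets with 1 symbol, 932 with several, 9160 with none), matched through GRCm38.p6 gene numbers. The brightest probe set stood for a gene. All members were named, with up to 3 genes per list by smallest p and the 5 nearest to Dnase2b. Further list and marker genes were named where they limit a count or a sum. The members and lists were chosen with earlier results of these data known, so counts over them are descriptions. Alternatives were 7 independent lenses, either lens of KO animal 1, median centring, signals as deposited, a filter at the 40th percentile, no trend, array weights, pseudocounts of 1 and 64, the mean of a gene's probe sets and leaving out each animal.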

Additional observations from a re-analysis of the deposited data

How the results depend on the processing

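Of 17 alternatives, 16 were fitted with limma and adjusted, and in each of these 0 of the 12 member probe sets passed. The mean of a gene's probe sets gave values only. Over all 17, the count of lower genes was 9 of 9 except with the right lens of KO animal 1 alone and without WT animal 2, where it was 8. The median log2 difference, -0.22 as reported, was -0.39 with the left lens of KO animal 1 alone, a move larger than the spread of that median between animals (SD 0.15), and lay between -0.34 and -0.096 when each animal was left out in turn. Of 153 single-gene values under the alternatives, 151 kept their direction. Some of these could not change: the filter and the fit without trend alter only p-values, and leave every difference, count and median as it was. The mean of a gene's probe sets could move only Vim and Tdrd7, the members with several probe sets. Bfsp1 turned to 0.0086 with the right lens of KO animal 1 alone. Vim turned to 0.025 without WT animal 2, and its range was -0.34 to 0.025 when animals were left out. The filter on low values removed 0 member probe sets. Median centring moved the median of all probe sets to -0.067, and the members lay at -0.30 there. Animal 7 was the only male, and without it the comparison holds females alone, with a member median of -0.34. The labels give no array or scan batch, and no replicate number is shared between groups.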
